A study of Mus musculus with 28 samples.

Results

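The mevalonate arm of cholesterol synthesis was followed here as 8 genes chosen by symbol, Hmgcs1, Mvk, Pmvk, Mvd, Idi1, Fdps, Ggps1 and Fdft1, out of 47719 genes listed in each of 10 tables of group comparisons. All 8 symbols were found as a single row in all 10 tables. Liver RNA came from 28 male C57BL/6 mice in 7 groups of 4, about 6 weeks old at the start. Of the 6 groups on a diet used to model nonalcoholic steatohepatitis (NASH, steatosis with inflammation and fibrosis), obeticholic acid (OCA) livers came from mice dosed orally at 25 mg/kg, and low, mid and high tropifexor (LJN452) livers from mice dosed at 0.1, 0.3 and 0.9 mg/kg. Both were given daily for 4 weeks once the mice had eaten for 26 weeks a chow with 40% of its energy as fat plus, by weight, 22% fructose and 2% cholesterol. No label pairs a dose with low, mid or high, so the smallest was taken as low and the largest as high. Each compound had its own vehicle group, read as NASH-diet mice from the sample titles although their treatment field lists the drug. Lean control livers came from mice on a low-fat diet, 10% of energy as fat, that contained neither fructose nor cholesterol. The NASH diet thus differed from the lean diet in fat, fructose and cholesterol at the same time. Lean mice were listed with 0 weeks of dosing and both vehicle groups with 4, so comparisons with lean livers also differ in dosing.

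The mevalonate arm builds the isoprenoid units from which cholesterol is made. Hmgcs1 joins acetyl units into HMG-CoA, the precursor of mevalonate. Mvk and Pmvk phosphorylate mevalonate, Mvd decarboxylates it to isopentenyl diphosphate, and Idi1 makes the isomer of that unit. Fdps condenses these units to farnesyl diphosphate, which Fdft1 (squalene synthase) commits to sterols and which Ggps1 extends to geranylgeranyl diphosphate for protein prenylation. In liver, most enzymes of the arm are known targets of SREBP2, a transcription factor that is released from the endoplasmic reticulum when its membranes are low in sterol. Obeticholic acid, modified from a natural bile acid, and tropifexor, a non-bile-acid compound, are both agonists of the bile acid receptor FXR.

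Each table held 1 FPKM value (fragments per kilobase of transcript, scaled to sequencing depth) per group, so no value of a single animal is given and the error comes from the authors' Cuffdiff test. A gene was called at a deposited q under 0.05. The depth of the libraries is unknown. Hepatocyte markers were abundant in every group and no marker of that list was at 0. The list's 8 markers summed to 64.4% and 58.6% of the lean level in OCA vehicle and tropifexor vehicle livers, with 2 and 7 of 8 called lower. The 8 macrophage markers summed to 218% and 205% of lean, with 5 and 4 called higher and 1 called lower in each, and the 8 stellate and myofibroblast markers to 224% and 278%, with 4 called higher in each; none of either list was at 0. The 6 cholangiocyte markers, none at 0, summed to 327% and 435% of lean, with 2 of 5 tested called higher and 1 lower in each vehicle group. Against their own vehicle, the hepatocyte sum was 120% with OCA and 105%, 121% and 99.9% with low, mid and high tropifexor. The macrophage sum was 69.2% with OCA and 97.9%, 51.1% and 68.8% with low, mid and high tropifexor, and the stellate sum 94.7%, 48.2%, 26.5% and 28.9% in the same order of groups. The cholangiocyte sum was 151% with OCA, with 2 of 5 called higher, and 159%, 40.9% and 64.3% with low, mid and high tropifexor, with 4 of 6 higher, 2 of 5 lower and 1 of 5 lower. In bulk liver, fewer cells of a type and less RNA per cell cannot be told apart, and the part of these shifts in the results was not tested.

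Promoter sequence is shown for 3 members because most of the arm moved together while Ggps1 did not. RefSeq windows on GRCm38.p6, from 250 bases before to 50 after a start site, matched 6 members in 7 windows. The windows shown are Hmgcs1, at chr13:119690101-119690400 on the plus strand, Mvk, at chr5:114444019-114444318 on the plus strand, and Ggps1, at chr13:14063439-14063738 on the minus strand. Capitals mark the sterol regulatory element core TCACNCCAC or the CCAAT box (CCAAT), each searched on both strands.
Hmgcs1: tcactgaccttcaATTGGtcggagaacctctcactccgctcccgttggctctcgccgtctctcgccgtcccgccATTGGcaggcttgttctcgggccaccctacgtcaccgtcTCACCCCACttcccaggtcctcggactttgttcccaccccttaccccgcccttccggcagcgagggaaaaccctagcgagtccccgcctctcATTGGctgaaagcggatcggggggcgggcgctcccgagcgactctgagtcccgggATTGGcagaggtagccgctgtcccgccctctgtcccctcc
Mvk: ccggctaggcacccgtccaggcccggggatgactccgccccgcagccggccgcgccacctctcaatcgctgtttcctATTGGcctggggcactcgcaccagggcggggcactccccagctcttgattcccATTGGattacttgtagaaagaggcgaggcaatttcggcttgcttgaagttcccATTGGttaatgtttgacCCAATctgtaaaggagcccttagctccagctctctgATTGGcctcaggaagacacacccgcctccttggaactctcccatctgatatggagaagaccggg
Ggps1: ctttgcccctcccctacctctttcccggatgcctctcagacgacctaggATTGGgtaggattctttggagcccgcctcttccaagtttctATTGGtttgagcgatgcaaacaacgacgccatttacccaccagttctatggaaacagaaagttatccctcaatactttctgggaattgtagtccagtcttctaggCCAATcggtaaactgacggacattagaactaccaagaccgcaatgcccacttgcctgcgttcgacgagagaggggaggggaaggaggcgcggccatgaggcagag
The sterol regulatory element core was found in 1 of the 7 windows, that of Hmgcs1, where it begins at position -137 from the start site, and in 1.24% of 32851 windows of all genes. The CCAAT box was found in 6 of the 7 windows and in 37.4% of all windows. Mvk held 5 boxes, Hmgcs1 4 and Ggps1 3, against 3.37% of all windows with 3 or more. Mvd and Idi1 held 2 each, and the windows of Pmvk held 1 and 0. The boxes and the core do not overlap. A match in these letters is a description and not evidence of a bound factor. On GRCm38 with the GENCODE annotation, the genes of the members lie at chr13:119690379-119708260 (Hmgcs1), chr5:114444269-114460591 (Mvk), chr3:89454541-89469013 (Pmvk), chr8:122433601-122443422 (Mvd), chr13:8885501-8892451 (Idi1), chr3:89093588-89101959 (Fdps), chr13:14050659-14063488 (Ggps1) and chr14:63145150-63179578 (Fdft1).

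The diet comparison asks how NASH-diet livers without drug differed from lean livers. The condensing enzyme Hmgcs1, the kinases Mvk and Pmvk, the isomerase Idi1 and the farnesyl diphosphate synthase Fdps were lower in each vehicle group, while Ggps1 stayed near its lean level. Of the 8 members, 5 fell and 3 were not called in OCA vehicle livers, where 18% of all tested genes were called and 6.56% were called lower. The same counts, 5 and 3, held in tropifexor vehicle livers, where 20.6% were called and 8.53% were called lower. The median log2 fold change of the members was -1.71 in OCA vehicle and -1.47 in tropifexor vehicle livers, against 0.02 and 0.01 over all tested genes. With the wider standard error implied by the deposited test statistic, a normal test kept 3 calls in each comparison, those of Hmgcs1, Pmvk and Fdps. The share of all genes called by that test was not counted in these or the other comparisons with lean or vehicle livers.

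Fdps fell the furthest among the members above 1 FPKM. The authors' deposited table gave Fdps 23.1 FPKM in OCA vehicle livers, against 141 FPKM in lean livers. In the authors' deposited table of the other vehicle it gave 30.1 FPKM in tropifexor vehicle livers, against 142 FPKM in lean livers. Fdps was thus at 16.4% and 21.2% of its lean level. The log2 fold changes in the authors' deposited table were -2.61 (rescaled SE 0.168) and -2.24 (rescaled SE 0.193), each called lower. The rescaled SE is the fold change over its deposited test statistic, divided by a factor of 2.03 to 2.05. That factor is a median over the genes of each table that brings the statistic to the scale of the deposited p. Single genes such as Mvd depart from it. Fdps exons share 1124 bases with the annotated gene Gm43738 on the same strand, and processed pseudogenes such as Gm3571 match it at 98.9% over 1062 bases, so its value carries that uncertainty.

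Hmgcs1, the entry enzyme, had 25.0 FPKM in OCA vehicle livers and 28.9 FPKM in tropifexor vehicle livers, against 71.7 and 72.1 FPKM in lean livers, in the authors' deposited table of each. Those levels are 34.8% and 40.1% of lean. The authors' deposited table gave Hmgcs1 log2 fold changes of -1.52 (rescaled SE 0.133) and -1.32 (rescaled SE 0.130). Pmvk, the second kinase of the arm, had 9.31 and 11.9 FPKM in OCA vehicle and tropifexor vehicle livers, against 34.8 and 35.0 FPKM in lean livers, in the authors' deposited table of each. Mvk, the kinase before it, fell less. It had 6.31 and 6.00 FPKM in OCA vehicle and tropifexor vehicle livers, against 12.2 FPKM in lean livers, in the authors' deposited table of each, or 51.8% and 49.0% of lean. With the rescaled SE, the 95% intervals of Pmvk were -2.16 to -1.64 and -1.85 to -1.26. The first did not overlap that of Mvk in OCA vehicle livers, -1.35 to -0.54. The second met that of Mvk in tropifexor vehicle livers, -1.49 to -0.57. With the wider implied SE, 0.270 for Pmvk and 0.418 for Mvk in OCA vehicle livers, the intervals overlap in both vehicle groups. The kinases were not tested against each other.

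Idi1 was listed at low values throughout. The authors' deposited table gave Idi1 0.0985 FPKM in OCA vehicle and 0.141 FPKM in tropifexor vehicle livers, against 0.564 and 0.567 FPKM in lean livers. Its log2 fold changes were -2.52 and -2.01, both called lower in the authors' deposited table, the second at q = 0.00952. The processed pseudogene Gm13502 matches 684 bases of Idi1 at 100%, and Gm35570 matches 681 bases at 97.7% and is listed at 2.01 FPKM in OCA vehicle and 2.57 FPKM in lean livers in the authors' deposited table. Idi1 reads may be split with these copies, and its level is uncertain. With 1 FPKM added to both groups, the Idi1 log2 fold changes were -0.51 and -0.46.

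Mvd and Fdft1 were low in both vehicle groups without being called. Mvd had 2.66 and 3.06 FPKM in OCA vehicle and tropifexor vehicle livers, against 12.4 FPKM in lean livers, in the authors' deposited table of each. That is 21.5% and 24.6% of lean, with log2 fold changes of -2.22 (rescaled SE 3.40) and -2.02 (rescaled SE 2.17), not called in the authors' deposited table. These SEs are wider than the deposited Cuffdiff p of Mvd, 0.109 and 0.267, implies. The tables place Mvd in a merged locus of 4435365 bases with 187 other genes. Fdft1 had 8.73 FPKM in each vehicle group, against 22.8 and 22.9 FPKM in lean livers, in the authors' deposited table of each. Its log2 fold changes were -1.39 in both tables, with rescaled SEs of 0.901 and 0.729, and neither was called (q = 0.626 in OCA vehicle livers and 0.225 in tropifexor vehicle livers in the authors' deposited table). Fdft1 shares a merged locus with Ctsb, whose exons overlap 774 of its bases on the opposite strand and which had 171 FPKM in OCA vehicle and 149 FPKM in lean livers in the authors' deposited table. For these members the size of the difference was like that of the called members, but the test statistic was small.

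Ggps1 had 2.17 and 2.31 FPKM in OCA vehicle and tropifexor vehicle livers, against 2.31 and 2.32 FPKM in lean livers, in the authors' deposited table of each. It stood at 93.7% and 99.4% of lean, with log2 fold changes of -0.09 (95% interval -0.67 to 0.48) and -0.01 (-0.61 to 0.60) by the authors' deposited table and its rescaled SE. Ggps1 exons overlap 257 bases of Arid4b on the opposite strand, and the sources used here do not say whether reads were counted by strand. The difference between the diet effects of the vehicle groups was not called for any of the 8 members by a normal test of the difference with Benjamini-Hochberg adjustment, nor at an unadjusted p under 0.05 (0 of 8). That test called 0.0985% of all genes. The difference was 0.37 for Fdps (95% interval -0.65 to 1.39) and 0.20 for Hmgcs1 (-0.54 to 0.95).

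**Figure D1:**
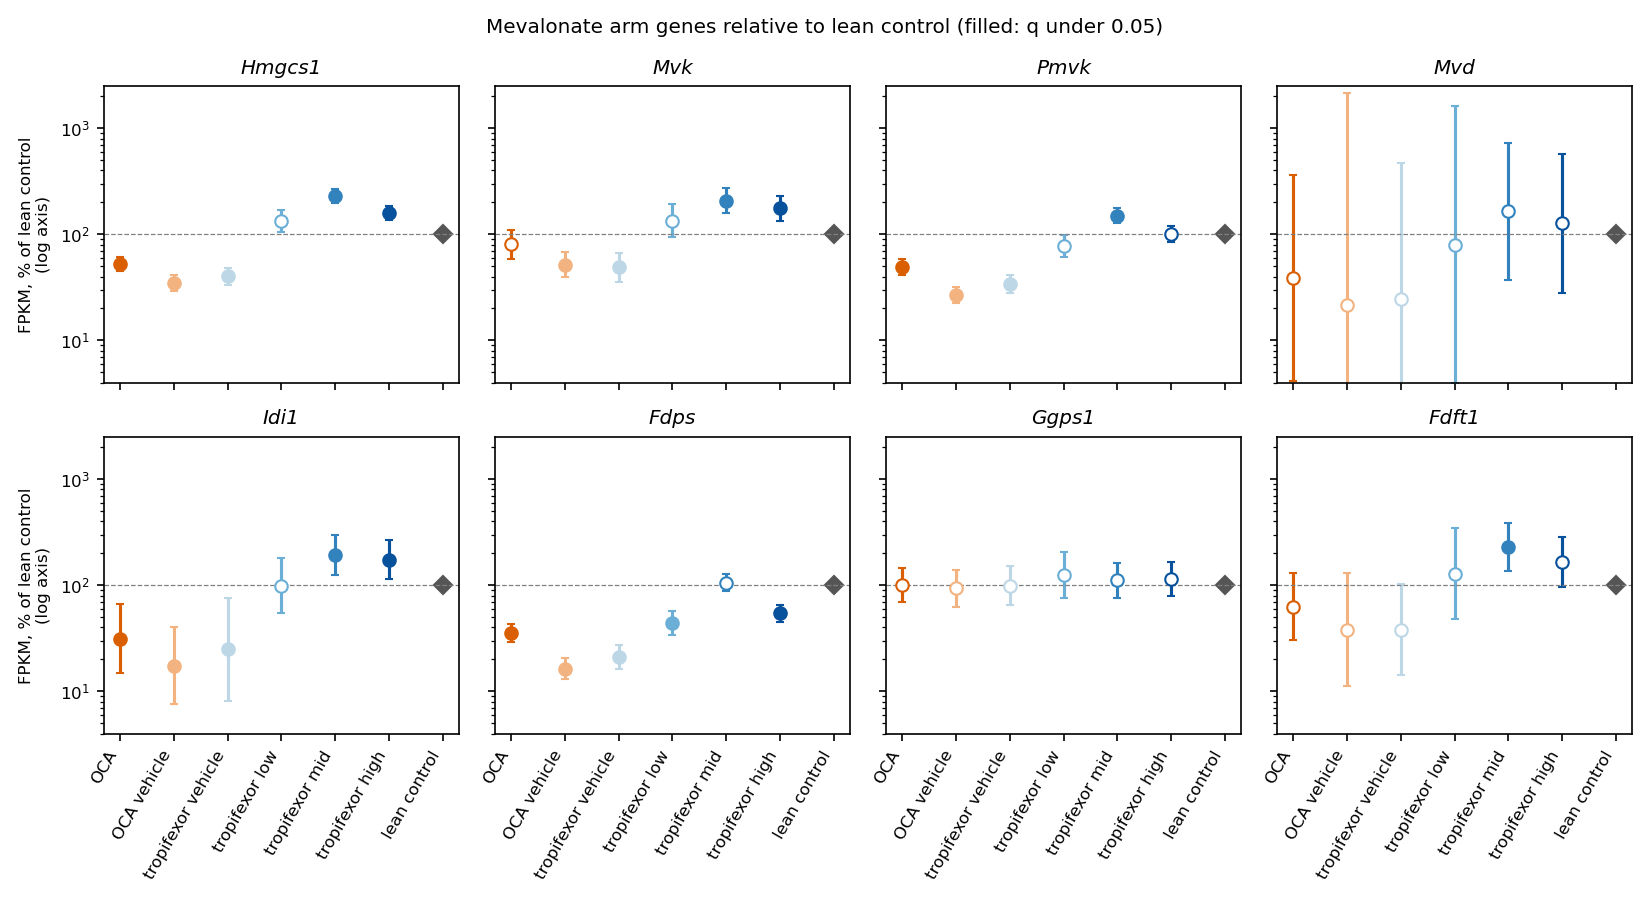
FPKM of each member as a percentage of lean control (log axis) in OCA, OCA vehicle, tropifexor vehicle, low, mid and high tropifexor and lean livers, each from its own table, with 95% intervals from the rescaled SE; filled points had q under 0.05, and the intervals of Mvd run off the axis. Hmgcs1 stood at 34.8% in OCA vehicle livers and 229% in mid tropifexor livers, while Ggps1 stayed between 93.7% and 126%.

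The OCA comparison asks what 4 weeks of OCA did on the NASH diet. Hmgcs1, Pmvk and Fdps were higher with OCA than with vehicle, and these 3 were also lower than in lean livers. Of 7 members tested, 3 rose and 4 were not called, where 4.04% of all tested genes were called, 1.81% higher and 2.23% lower. The members' median was 0.71 (log2), against -0.01 over all tested genes. With the implied error, a normal test called 0 of 7 members, with 3 of 7 at an unadjusted p under 0.05.

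Fdps had 53.4 FPKM in OCA livers, against 24.6 FPKM in OCA vehicle livers, in the authors' deposited table. Its log2 fold change there was 1.12 (rescaled SE 0.171, q = 0.00268 in the authors' deposited table). Pmvk had 18.1 FPKM in OCA livers, against 9.91 FPKM in OCA vehicle livers, in the authors' deposited table, a log2 fold change of 0.87 (rescaled SE 0.143). Hmgcs1 rose least of the called members. It had 40.0 FPKM in OCA livers, against 26.6 FPKM in OCA vehicle livers, in the authors' deposited table, a log2 fold change of 0.59 (rescaled SE 0.132). Mvk, at 0.63 (rescaled SE 0.237, q = 0.156 in the authors' deposited table), had a fold change of the same size but was not called. Mvd stood at 0.85 and Fdft1 at 0.71 (q = 0.999 each), and Ggps1 at 0.10 (95% interval -0.47 to 0.67), in the authors' deposited table. Idi1 was not tested in that comparison, with 0.188 FPKM in OCA livers, against 0.105 FPKM in OCA vehicle livers, in the authors' deposited table.

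Tropifexor was given at 3 doses, and the question is how far each moved the arm from vehicle. Hmgcs1, Mvk, Pmvk, Idi1 and Fdps rose at each dose and Fdft1 at the mid and high doses, while Mvd and Ggps1 were not called at any dose. At the low dose, 5 of 8 members rose and 3 were not called, where 11.2% of all tested genes were called and 6.03% were called higher and 5.2% lower. At the mid dose 6 rose and 2 were not called, against 27.5% called and 11.8% called higher. At the high dose 6 rose and 2 were not called, against 25.4% called and 9.93% called higher. The members' medians were 1.57, 2.42 and 1.93 (log2) at the low, mid and high dose, against -0.00, -0.01 and -0.05 over all tested genes. The 3 doses share the tropifexor vehicle group. With the implied error, a normal test kept 1 call at the low dose, Hmgcs1, and 4 calls at the mid and at the high dose, without Idi1 and Fdft1.

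Hmgcs1 had 110 FPKM in low, 165 FPKM in mid and 120 FPKM in high tropifexor livers, against 32.9, 28.8 and 29.9 FPKM in tropifexor vehicle livers, in the authors' deposited table of each dose. Its log2 fold changes in the authors' deposited table were 1.74 (rescaled SE 0.190), 2.52 (rescaled SE 0.139) and 2.00 (rescaled SE 0.141), with q of 0.000968, 0.000361 and 0.000396. Each of these is the smallest q of its comparison, so they do not rank the doses. The mid value is a 5.74-fold higher level than vehicle. Mvk had 18.6, 25.4 and 22.5 FPKM in low, mid and high tropifexor livers, against 6.84, 5.98 and 6.22 FPKM in tropifexor vehicle livers, in the authors' deposited table of each dose. Its log2 fold changes were 1.45, 2.09 and 1.85 at the low, mid and high dose in the authors' deposited table. Pmvk had 31.2, 52.5 and 36.8 FPKM in low, mid and high tropifexor livers, against 13.5, 11.8 and 12.3 FPKM in tropifexor vehicle livers, in the authors' deposited table of each dose. The values of these 3 early enzymes were highest at the mid dose, but no difference between the high and low doses was called for them with either error, and for Mvk none between mid and low.

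Fdps had the smallest rise of the called members at the low and the high dose, but not at the mid dose. It had 71.9, 150 and 80.8 FPKM in low, mid and high tropifexor livers, against 34.2, 30.0 and 31.1 FPKM in tropifexor vehicle livers, in the authors' deposited table of each dose. Its log2 fold changes were 1.07 (rescaled SE 0.239), 2.32 (rescaled SE 0.192) and 1.38 (rescaled SE 0.195) in the authors' deposited table. Idi1 rose by 1.99, 2.96 and 2.83 (log2) at the low, mid and high dose, with q of 0.0449, 0.000361 and 0.000396 by dose, in the authors' deposited table. Its FPKM did not exceed 1.09 in any of these groups in the authors' deposited table, and with 1 FPKM added its changes were 0.50, 0.87 and 0.83.

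Fdft1, which commits farnesyl diphosphate to sterols, had 33.5, 52.3 and 39.9 FPKM in low, mid and high tropifexor livers, against 9.94, 8.69 and 9.04 FPKM in tropifexor vehicle livers, in the authors' deposited table of each dose. It rose at the mid dose by 2.59 (rescaled SE 0.692, q = 0.0123) and at the high dose by 2.14 (rescaled SE 0.723, q = 0.0405), and stood at 1.75 (rescaled SE 1.12, q = 0.649) at the low dose, in the authors' deposited table. Mvd, in its merged locus, stood at 1.70, 2.75 and 2.39 (log2) at the low, mid and high dose with q of 0.547, 0.337 and 0.517 in the authors' deposited table. Ggps1, on the other branch, stood at 0.34, 0.17 and 0.22 (log2) in the authors' deposited table. None of the Ggps1 values was called, and the 95% intervals were -0.41 to 1.10, -0.44 to 0.78 and -0.36 to 0.80.

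**Figure D2:**
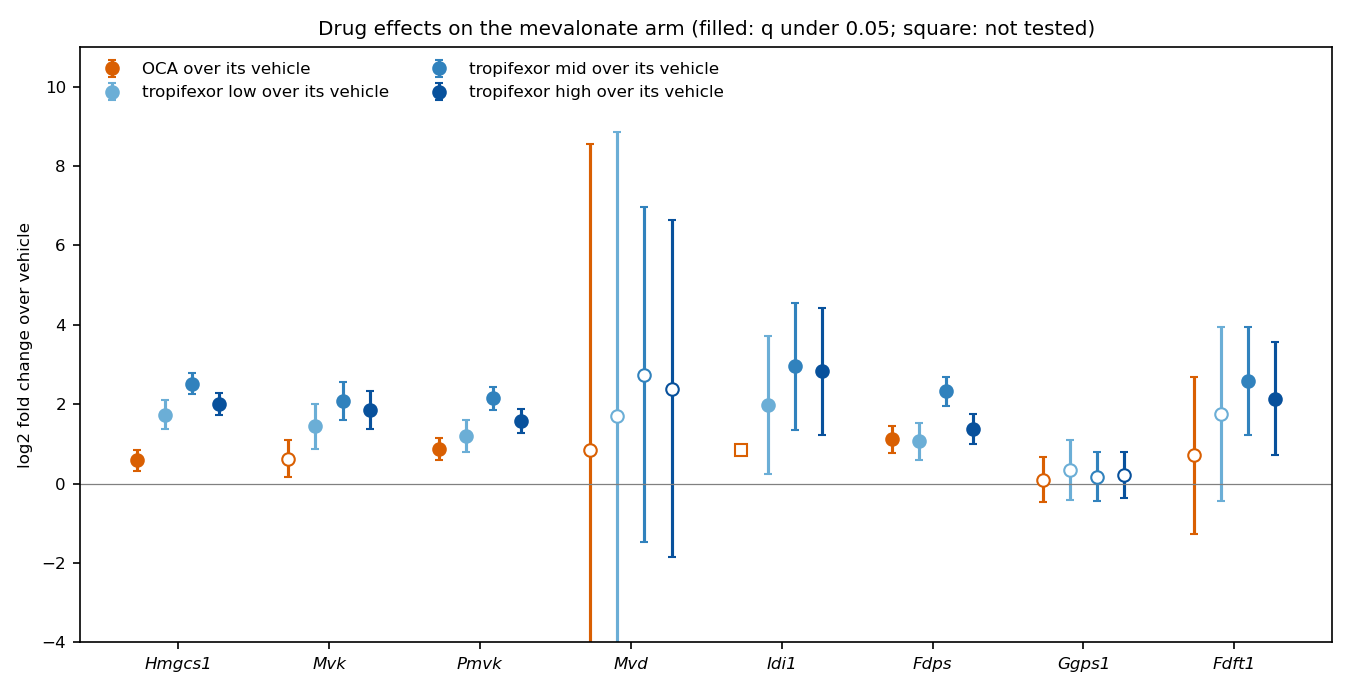
Log2 fold change over its own vehicle for each member with OCA and with low, mid and high tropifexor; bars are 95% intervals from the rescaled SE, filled points had q under 0.05, the open square was not tested, and the bars of Mvd run off the axis for OCA and the low dose. Hmgcs1 reads 0.59 with OCA and 1.74, 2.52 and 2.00 with low, mid and high tropifexor, and Ggps1 lies near 0 in all 4.

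The drug groups were also set against lean livers. With OCA, 4 of 8 members were lower than lean, Hmgcs1, Pmvk, Idi1 and Fdps, and 4 were not called, where 16.8% of all tested genes were called and 6.5% were called lower. With the low dose of tropifexor 1 was lower and 7 were not called, against 23.8% called and 10.1% called lower. With the mid dose 5 were higher and 3 were not called, against 23.1% called and 11.7% called higher. With the high dose 3 were higher, 1 was lower and 4 were not called, against 27.3% called, 12.2% higher and 15.2% lower. All 4 comparisons share the lean control group. A normal test with the implied error kept 3 of the 4 calls with OCA, losing Idi1, called 0 of 8 at the low dose, with 1 of 8 at an unadjusted p under 0.05, and kept Hmgcs1 at the mid dose and Fdps at the high dose.

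The members called above lean ran from Hmgcs1 to Fdft1 at the mid dose and were Hmgcs1, Mvk and Idi1 at the high dose. Hmgcs1 stood at 52.5% of lean with OCA and at 134%, 229% and 159% with low, mid and high tropifexor. Mvk stood at 80.3% of lean with OCA and at 134%, 207% and 175% with low, mid and high tropifexor. Of these, the Hmgcs1 level with OCA was called lower, and the mid and high levels of both genes were called higher. Pmvk stood at 49.1% of lean with OCA, called lower, and at 78.3%, 150% and 100% with low, mid and high tropifexor, of which the mid level was called higher. Idi1 stood at 31.5% of lean with OCA, called lower, and at 98.8%, 192% and 174% with low, mid and high tropifexor, of which the mid and high levels were called higher. Fdft1 stood at 62.9% of lean with OCA and at 128%, 228% and 166% with low, mid and high tropifexor, of which the mid level was called higher.

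Fdps behaved unlike these. It stood at 35.7% of lean with OCA and at 44.5%, 106% and 54.4% with low, mid and high tropifexor. It was lower than lean with OCA and with the low and high doses, and the mid level was not called (log2 fold change 0.08, q = 0.762 in the authors' deposited table). At the high dose Fdps had a log2 fold change over lean of -0.88 (95% interval -1.14 to -0.62), while those of Hmgcs1 and Mvk were 0.67 (0.44 to 0.90) and 0.81 (0.41 to 1.21), by the authors' deposited table and its rescaled SE. These intervals do not overlap. Mvd stood at 38.8% of lean with OCA and at 79.6%, 164% and 127% with low, mid and high tropifexor, none called, and Ggps1 stood at 101% with OCA and at 126%, 111% and 114%, none called.

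By order of level, given as a description since few differences between doses were called, 5 of the 8 members ran from lowest in OCA vehicle livers, through tropifexor vehicle and OCA livers, to low, high and mid tropifexor livers, in percent of lean. The others were Mvk and Fdft1, whose lowest levels were in tropifexor vehicle livers by small margins (49.0% against 51.8%, and 38.0% against 38.3%), and Ggps1, which was highest with low tropifexor. The lean level lay between the groups at different places: below low tropifexor for Hmgcs1, Mvk and Fdft1, between low and high tropifexor for Pmvk, Mvd and Idi1, and between high and mid tropifexor for Fdps.

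Differences between drug effects were tested for 7 pairs of effects, the pair of vehicle groups included. With the standard error implied by the deposited test statistic, Hmgcs1 alone of the members was called by the normal test of the difference, Benjamini-Hochberg adjusted over all genes. Of the 7 members tested against OCA, 1 was called for mid and 1 for high tropifexor, and 4 and 1 had an unadjusted p under 0.05. Its effect with mid tropifexor exceeded that with OCA by 1.93 (log2, 95% interval 1.17 to 2.70), where 1.48% of all genes were called. Its effect with high tropifexor exceeded that with OCA by 1.42 (0.65 to 2.19), where 1.69% were called. With the rescaled SE, mid tropifexor also exceeded OCA for Mvk by 1.46, for Pmvk by 1.28 and for Fdps by 1.21, so that 4 of 7 members were called, against 12% of all genes. High tropifexor exceeded OCA for 3 of 7 with that error, Hmgcs1, Mvk by 1.23 and Pmvk by 0.71, against 11.4% of all genes. The doses of the compounds are not matched, and these differences compare the groups as dosed.

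For Fdps, low and high tropifexor were not shown to differ from OCA. The low dose differed from OCA by -0.04 (95% interval -1.22 to 1.13) and the high dose by 0.26 (-0.78 to 1.29), with the implied error, and the intervals with the rescaled SE were -0.62 to 0.53 and -0.25 to 0.77. Hmgcs1 differed between low tropifexor and OCA by 1.15 (95% interval 0.22 to 2.08), called with the rescaled SE and not with the implied error. That pair had 1 of 7 members called with the rescaled SE, where 5.24% of all genes were called, and 0 of 7 with the implied error, where 0.418% were called and 1 of 7 had an unadjusted p under 0.05.

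Between tropifexor doses, no member was called with the implied error in any of the 3 pairs, with 1 of 8 at an unadjusted p under 0.05 for mid against low and 0 of 8 in the others. With the rescaled SE, the mid dose exceeded the low dose for 3 of 8 members, where 10.3% of all genes were called: Fdps by 1.25 (95% interval 0.65 to 1.85), Pmvk by 0.94 (0.45 to 1.44) and Hmgcs1 by 0.78 (0.32 to 1.24). The high dose was below the mid dose for 1 of 8, Fdps, at -0.95 (-1.48 to -0.41), where 2.32% of all genes were called. High against low gave 0 of 8 with either error, where 5.63% of all genes were called with the rescaled SE, and Hmgcs1 differed by 0.27 (-0.20 to 0.73). The 3 pairs share the tropifexor vehicle group, and the difference of the mid dose from the others was called with the rescaled SE and not with the implied error. The implied error called 0.423%, 0.319% and 0.278% of all genes for mid against low, high against mid and high against low.

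**Figure D3:**
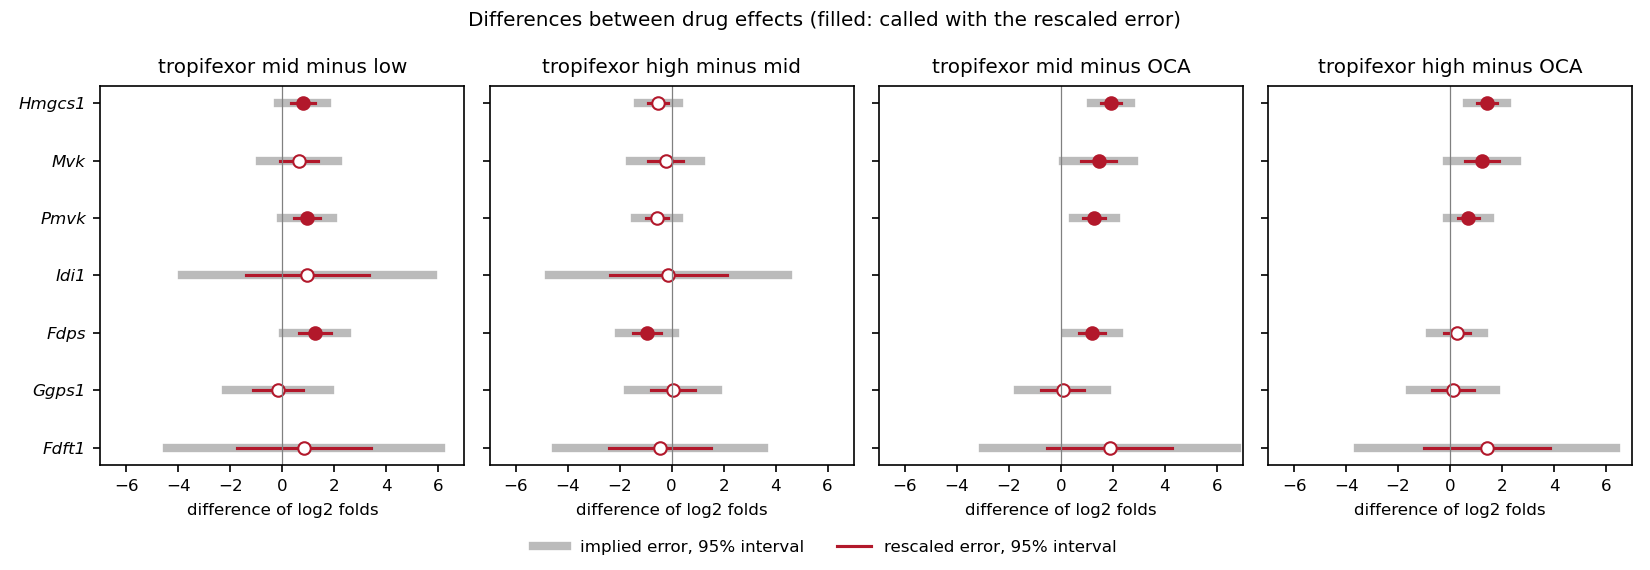
Difference of log2 fold changes between drug effects for 7 members, Mvd left out for its wide error, in 4 pairs: mid minus low, high minus mid, mid minus OCA and high minus OCA; grey bars are 95% intervals with the implied error, red lines with the rescaled SE, and filled points were called with the rescaled SE. Fdps reads 1.25 for mid minus low and -0.95 for high minus mid, and Hmgcs1 reads 1.93 for mid minus OCA; Idi1 had no test with OCA.

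Genes around the arm were taken from 6 lists, and the closest were the enzymes after squalene. Beside the counts below, 6.56% and 8.53% of all tested genes were lower in OCA vehicle and tropifexor vehicle livers, and 11.4% and 12.1% higher. With OCA over vehicle 1.81% were called higher and 2.23% lower. With low, mid and high tropifexor over vehicle 6.03%, 11.8% and 9.93% were called higher and 5.2%, 15.7% and 15.5% lower. Of 12 post-squalene enzymes, 10 were lower in each vehicle group, 3 rose with OCA, and 6, 10 and 8 rose with low, mid and high tropifexor (1 fell at the high dose). Their medians were -1.65 and -1.51 in OCA vehicle and tropifexor vehicle livers, 0.53 with OCA and 0.99, 1.94 and 1.36 with low, mid and high tropifexor. Sqle, squalene epoxidase, had 1.29 FPKM in OCA vehicle livers, against 26.0 FPKM in lean livers, in the authors' deposited table. It had 31.7 FPKM in mid tropifexor livers, against 1.69 FPKM in tropifexor vehicle livers, in the authors' deposited table. Against lean, Sqle stood at 0.28 (q = 0.0729) with mid tropifexor in the authors' deposited table, and the demethylase Cyp51 was higher at 0.69. The 12 enzymes had 3 higher and 9 not called against lean at the mid dose. At the low dose 0 were higher and 4 lower, at the high dose 1 and 3, and with OCA 0 and 8. Their medians against lean were -0.35, 0.30 and -0.14 with low, mid and high tropifexor and -1.02 with OCA.

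Of the first steps and the ketone branch, 7 genes with 6 tested, 2 were lower in each vehicle group, 1 rose with OCA, and 1, 2 and 2 rose while 2, 4 and 4 fell with low, mid and high tropifexor. Acat2, the cytosolic acetyl-CoA acetyltransferase that supplies Hmgcs1, fell by 1.08 in OCA vehicle and by 0.92 in tropifexor vehicle livers in the authors' deposited table. It rose by 1.45 at the mid and 0.83 at the high dose of tropifexor and stood at 0.47 (q = 0.0559) at the low dose in the authors' deposited table. Acat1, its mitochondrial counterpart, fell by 0.77 at the mid and by 1.24 at the high dose and stood at -0.96 (q = 0.0580) at the low dose in the authors' deposited table. At the mid and high doses Acat2 and Hmgcs1 rose while Acat1 fell.

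The 14 enzymes of the prenyl branch use farnesyl or geranylgeranyl diphosphate or act on products made from them. Of these, 1 was lower in OCA vehicle livers, 1 was higher and 1 lower in tropifexor vehicle livers, and all 14 were not called with OCA. With low, mid and high tropifexor 1, 1 and 0 rose and 1, 2 and 2 fell, with medians of -0.20, -0.01 and -0.29. At the mid and high doses 15.7% and 15.5% of all tested genes were called lower. These few calls are therefore not read as a result about the branch. Pggt1b, a subunit of an enzyme that attaches geranylgeranyl groups to proteins, rose by 0.84 at the low and 0.61 at the mid dose in the authors' deposited table. The Ggps1 values at those doses, 0.34, 0.17 and 0.22, were not called.

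In the SREBP machinery, 9 genes found of 10 sought, 1 was higher and 3 lower in OCA vehicle and 3 were lower in tropifexor vehicle livers, all 9 were not called with OCA, and 2, 4 and 2 rose while 1, 0 and 2 fell with low, mid and high tropifexor. Srebf2, which encodes SREBP2, fell by 0.51 and by 0.63 in OCA vehicle and tropifexor vehicle livers and rose by 0.89, 1.23 and 0.98 with low, mid and high tropifexor in the authors' deposited table. With OCA it stood at 0.27 (q = 0.340) in the authors' deposited table. Insig1, which holds SREBP back in the endoplasmic reticulum, fell by 1.39 and by 1.87 in the vehicle groups and rose by 0.60, 1.26 and 0.66 with low, mid and high tropifexor in the authors' deposited table. Unlike Hmgcs1, Insig1 was still lower than lean at every dose, with -1.27, -0.61 and -1.22 at low, mid and high in the authors' deposited table. Srebf1, of the fatty acid branch, was higher by 0.98 in OCA vehicle livers (q = 0.0217) and stood at 0.09 in tropifexor vehicle livers in the authors' deposited table. Against vehicle, Srebf1 stood at -0.66 with OCA and -0.50 with mid tropifexor, neither called, and fell by 1.97 at the low and by 1.28 at the high dose, in the authors' deposited table.

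Of 16 targets of SREBP2 outside the pathway, 15 were tested in each comparison used here except low tropifexor, with 16, and 13 and 11 were lower in OCA vehicle and tropifexor vehicle livers. Of these targets 6 rose with OCA, and 4, 10 and 6 rose while 3, 0 and 4 fell with low, mid and high tropifexor. Acss2, which makes acetyl-CoA from acetate, had 238 FPKM in mid tropifexor livers, against 33.2 FPKM in tropifexor vehicle livers, in the authors' deposited table. It rose by 0.95 with OCA and by 0.76, 2.84 and 1.66 with low, mid and high tropifexor in the authors' deposited table. Rdh11, a retinol dehydrogenase, rose by 0.92 with OCA and by 1.34, 2.74 and 1.93 with low, mid and high tropifexor in the authors' deposited table. Both had their highest fold change at the mid dose, and differences between doses were not examined for them. Of 12 LXR and efflux genes, 5 and 4 were higher in the vehicle groups. With OCA 1 fell, and 3 rose at each tropifexor dose while 1, 3 and 3 fell. The 3 that rose were Abcb4, Scarb1 and Soat2 at each dose, and Abcg5 was not called at any. Abca1 was among those that fell, at -0.59, -0.52 and -0.51 with low, mid and high tropifexor in the authors' deposited table.

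**Figure D4:**
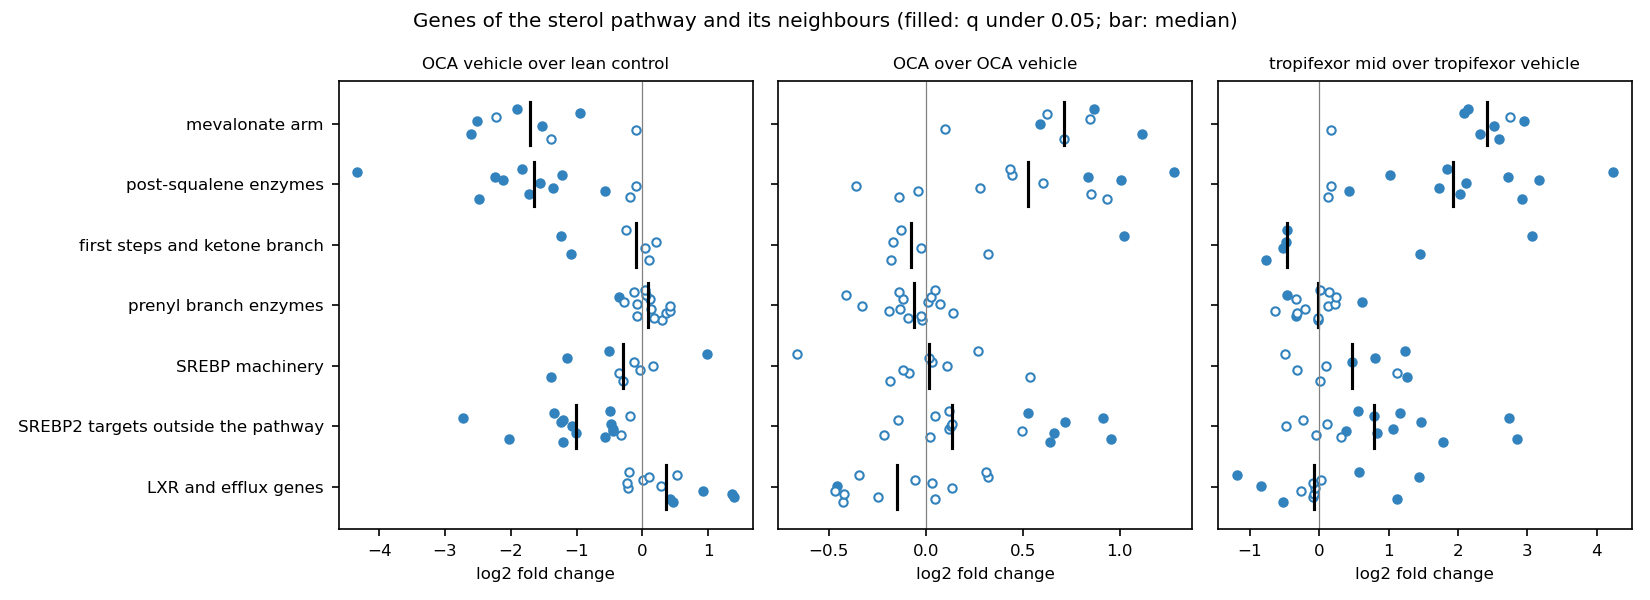
Log2 fold changes of the mevalonate arm and 6 lists of neighbouring genes in OCA vehicle over lean, OCA over OCA vehicle and mid tropifexor over tropifexor vehicle livers; each point is a tested gene, filled where q was under 0.05, and bars are list medians. The medians of the arm are -1.71, 0.71 and 2.42, those of the post-squalene enzymes -1.65, 0.53 and 1.94, and those of the prenyl branch 0.08, -0.06 and -0.01.

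The genes most like the arm were sought over the 6 comparisons with lean livers, by the root mean square difference (log2) from the members' median, among 11598 genes. Hmgcs1 was nearest at 0.220 and Fdft1 next at 0.267, whereas Fdps at 0.991 and Ggps1 at 1.03 stood at ranks 1915 and 2742. The members set that median themselves, so their own ranks describe only how close each lies to the middle of the set. Idi1 counted in the median but was not ranked, as it stayed under 1 FPKM in some comparisons. The median of all genes was 1.13. Among the 10 nearest genes outside the arm were the post-squalene enzymes Msmo1 (0.335), Lss (0.365), Dhcr7 (0.381) and Nsdhl (0.461). The others included Nfe2 (0.268), a transcription factor of blood cells, the phospholyase Etnppl (0.335), the aldolase Aldoc (0.338) and the ficolin Fcna (0.466), with Rab11fip4 (0.423) and Gm25596 (0.432). The comparisons share the lean control group, so part of any likeness comes from it.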

How the data were processed

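Liver RNA from 28 mice was extracted with Trizol, and libraries were made with a TruSeq Stranded mRNA kit, as the labels' extract protocol states. The submitters' processing notes name bcl2fastq, STAR 2.5.1b, Cufflinks 2.2.1, Cuffnorm, Cuffdiff and the build GRCm38. The authors deposited 10 Cuffdiff tables, each with 1 FPKM value per group over its 4 animals. Each also holds the authors' log2 fold change, a score that takes sentinel values where a group is at 0, with its test statistic. The deposited p-value and q-value come from the authors' test. The smallest p of that Cuffdiff test was 5e-05 in every comparison. Genes at that p share the smallest q of their comparison, which differs between comparisons and does not rank effects. No values per animal and no depth were in these tables, so no interval from counts was given. The tables were scaled separately, so groups were compared within a table.

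A gene was called at status OK and q under 0.05. The implied SE is the log2 fold change over the test statistic, and the rescaled SE divides it by the median ratio of the deposited p's normal score to that statistic. Differences between effects were tested by a normal test, Benjamini-Hochberg adjusted over all genes. It was tried on simulated data for genes with a small rescaled SE, which leaves out Mvd, Idi1 and Fdft1. The simulated errors were independent and drawn from the rescaled SE. That trial therefore cannot check a shared control group or the size of either SE. Effects that share a control group are not independent, and the test treats them as independent. Python 3.11.15, pandas 2.3.3, scipy 1.17.1 and BLAST 2.17.0 were used. Promoters are from RefSeq on GRCm38.p6 and loci from GENCODE on GRCm38.

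All 8 members were named. Genes of the lists were named from the up to 4 of each list with the largest mean size of change, plus Srebf2, Insig1 and Sqle, and the 10 genes most like the members' median were named; some genes that the rule selects are not reported here. Fdps and Fdft1 had no promoter entry. The members, lists and tests were chosen with earlier results of these data known.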

Additional observations from a re-analysis of the deposited data

Results flagged for a closer look

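The effect on Hmgcs1 differed between OCA and the mid and high doses of tropifexor by the test of the difference. The effect of mid tropifexor over tropifexor vehicle exceeded that of OCA over OCA vehicle by 1.93 on the log2 scale, and the effect of high tropifexor exceeded it by 1.42. The low dose, at a difference of 1.15 (95% interval 0.22 to 2.08), was not called by the same test. Each effect is relative to its own vehicle group, and the doses are not matched.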

How the results depend on the processing

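No paired analysis was possible because the tables hold 1 value per group and no value per animal, and leaving out each replicate was not run for the same reason. With the implied error in a normal test, the members called were 3 in OCA vehicle and 3 in tropifexor vehicle livers over lean, 0 with OCA over vehicle, 1 with low tropifexor over vehicle, and 0, 1 and 1 with low, mid and high tropifexor over lean. Requiring also a log2 fold change of at least 1 left 1 with OCA over vehicle and 3 and 0 with mid and high tropifexor over lean. At q under 0.01, 3 were called with mid tropifexor over lean. The share of all genes called was not counted under these settings. For the differences between effects, the rescaled error called 3 members for mid minus low, 1 for high minus mid, 1 for low minus OCA, 4 for mid minus OCA and 3 for high minus OCA. No direction was reversed under the alternatives run, but most of them could not reverse one. They keep the same fold change or add the same FPKM to both groups, so this is no check of direction. Idi1 moved in 8 comparisons when 1 FPKM was added and lost its call in 5 when genes under 1 FPKM were left out. Drug effects taken through the lean control group instead, 32 values, moved by less than their rescaled SE, except that Idi1 with OCA has no SE. A group's values differ between comparisons by little more than a constant factor. That closeness therefore follows from the arithmetic and is no independent check. The depth of the libraries is unknown.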

Other observations

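Processed pseudogenes with sequence close to Fdps were listed at low values that differed in the same direction. Gm3571 had 0.0895 FPKM in OCA vehicle livers, against 0.524 FPKM in lean livers, and Gm5873 had 0.0920 FPKM in OCA vehicle livers, against 0.675 FPKM in lean livers, in the authors' deposited table. They match Fdps at 98.9% over 1062 bases and at 96.7% over 1066 bases. How far reads were shared between them and Fdps was not tested.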
